A study of Danio rerio with 8 samples.

Results

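Complement and blood clotting are 2 cascades of plasma proteins, and 39 of their zebrafish genes are described here in whole larvae with and without a working pex2 gene. The genes were listed by symbol for their place in either cascade, with earlier results of these data known. The counts below thus describe this list only. Each gene was found on the array by the RefSeq accession of its probe. Probes were present for 33 of the 39, and 32 were measured, among 17264 named genes tested. The factor H gene cfh was not well above background on any of the 8 arrays and was not tested. No probe was matched to masp1, cfi, c6, c7b, f9a or f13a1b, which are not analysed here. All 32 measured genes were well above background on all 8 arrays. By role, 15 belong to complement, 16 to clotting, and vitronectin acts in both.

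The study set pex2-/- zebrafish of the allele called typeC beside wild-type (pex2+/+) siblings, at 5 weeks after fertilization, as a model of Zellweger syndrome. Pex2 sits in the membrane of the peroxisome, an organelle of lipid metabolism, and helps to bring enzymes into it. Each of the 4 pools per genotype held equal amounts of total RNA from 3 whole larvae and was hybridised, with Cy3 label, to its own one-colour array. In RNA of whole bodies, fewer cells of a type and less RNA per cell cannot be told apart. The labels do not say if different pools had different parents. The p-values thus reflect pool-to-pool spread, which may be partly technical.

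Complement marks microbes and damaged cells for removal and can end in a pore made of its terminal components. It is started by C1q bound to antibody, by lectins with their MASP proteases, or by the alternative pathway, and all 3 routes meet at C3. Clotting runs from tissue factor and factor VII through factors IX, X and V to thrombin, which turns fibrinogen into fibrin. Plasminogen later dissolves the clot, and serpins such as antithrombin restrain the proteases. In mammals hepatocytes secrete most of these proteins, while C1q comes largely from macrophages, factor VIII from endothelial cells and factor D largely from fat cells.

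The signal of a gene is given as log2 intensity minus the 75th percentile of its array, so 0 is the signal at that percentile. A difference is the mean of the mutant pools minus that of the sibling pools on this scale, with the moderated standard error. Adjusted p-values are from limma with Benjamini-Hochberg adjustment over all probes, and a gene is called at an adjusted p of 0.05. Levels of different probes are not comparable, so differences are set beside each other. Summed levels of marker lists, given further on, weigh each probe by its own brightness and are a description only. The 75th percentile itself lay between 611 and 839 intensity units on the sibling arrays and between 454 and 499 on the mutant arrays (n = 4 each, two-sided exact permutation p = 0.0286, which is the lowest possible with 8 arrays). The 100 brightest probes held 26.9% to 31.0% of the signal on sibling arrays and 33.0% to 37.2% on mutant arrays (exact p = 0.0286). The part of either measure in the differences was not tested. Further, mutant replicate 4 had the fewest probes above background, 67.3%, against 72.7% to 76.3% on the other arrays.

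Most of the measured members of both cascades were higher in the mutant pools. Of 15 complement genes, 9 were higher and 4 lower, with 2 that did not pass. Of 16 clotting genes, 11 were higher and 2 lower, with 3 that did not pass, and vitronectin was higher. Across all named genes 57.6% were called, 29.9% higher and 27.8% lower. The members therefore had 84.4% called and 65.6% higher, with 18.8% lower. The median difference was 0.82 for complement and 0.75 for clotting, against 0.01 for all named genes.

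The 21 higher members rose by 1.40-fold to 3.09-fold, with a median of 1.84-fold, and the 6 lower ones fell by 1.61-fold to 3.37-fold. In each of the 21 all mutant pools lay above all sibling pools, and in each of the 6 all lay below. Over all named genes such a separation was found in 54.6%, with the mutants above in 28.5% and below in 26.1%. A call with a change of at least 2-fold was rarer. It was found for 5 of the 32 members upward and 1 downward. Of the 17264 named genes it was found for 1226 (7.10%) upward and 2138 (12.4%) downward. The 25th and 75th percentiles of the difference over all named genes were -0.51 and 0.48, and the 95th was 1.12, which f9b and fga exceeded. No test was made of the difference between the complement and the clotting list, and their counts and medians stand here as a description.

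**Figure D1:**
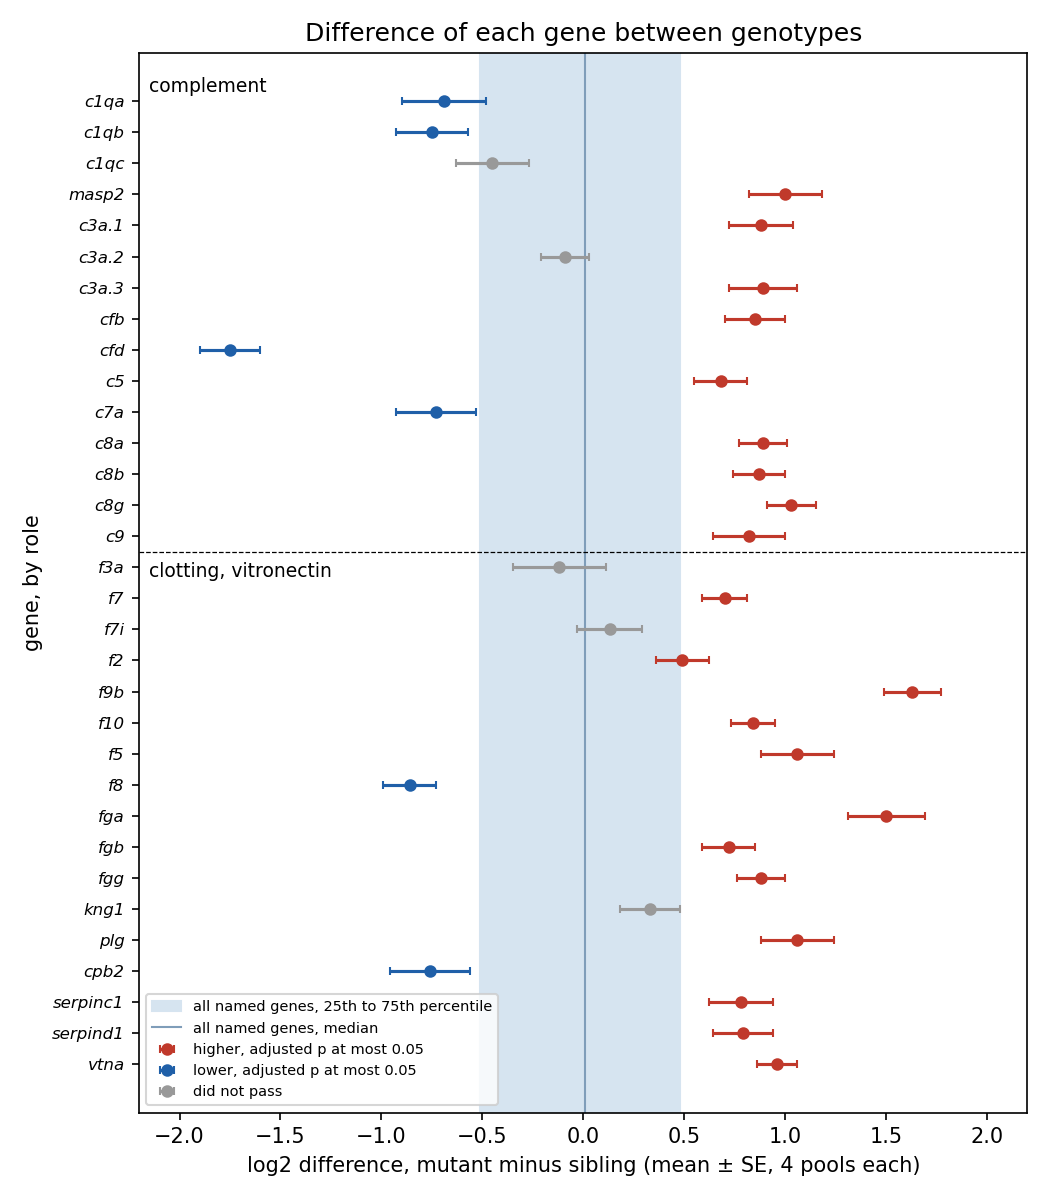
Log2 difference between 4 mutant and 4 sibling pools for each of 32 genes, with the moderated standard error, over the range between the 25th and 75th percentiles of all named genes (-0.51 to 0.48). The 21 called higher genes lie at 0.49 or above, and cfd lies lowest at -1.75.

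Genes for the start of complement, those of C1q and the lectin protease masp2, did not move together. The subunits of C1q, which binds antibody on a target and starts the classical pathway, were on the low side. For c1qb the signal was -0.92, -0.75, -0.59 and -0.49 in the sibling pools and -1.16, -1.14, -1.65 and -1.78 in the mutant pools. All mutant pools lay below all sibling pools, and the gene fell by 1.68-fold (difference -0.75 ± 0.18 SE, adjusted p = 0.00741). The subunit c1qa fell by 1.61-fold (difference -0.69 ± 0.21, adjusted p = 0.0200), from a sibling mean of -2.22 ± 0.40 to a mutant mean of -2.91 ± 0.20 (SD, n = 4 each). That call was lost with normexp background correction (-0.25, adjusted p = 0.148), without sibling replicate 4 (adjusted p = 0.0555) and without mutant replicate 3 (adjusted p = 0.0520). For c1qc the genotypes overlapped and the difference of -0.45 ± 0.18 did not pass (adjusted p = 0.0626). It did pass without sibling replicate 1 (adjusted p = 0.0282) or without mutant replicate 2 (adjusted p = 0.0449).

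Markers of macrophages, which make C1q in mammals, were mixed, with more of them lower than higher. Of 10 measured macrophage markers 5 were lower and 2 higher, with a median difference of -0.62. The summed level of the 10, on the linear scale relative to the 75th percentile, ranged from 16.1 to 22.7 in the sibling pools and from 8.24 to 13.9 in the mutant pools. Such a sum rests mainly on the brightest probe, here that of cd74a (mean log2 signal 3.91 in siblings and 2.68 in mutants). It therefore says little about the other markers. The perforin-like gene mpeg1.2 (-2.05 ± 0.24, adjusted p = 2.70e-04, and -0.94 with normexp), the transcription factor mafbb (-1.09 ± 0.15, adjusted p = 4.95e-04) and cd74a, of antigen presentation (-1.23 ± 0.24, adjusted p = 0.00294), fell. The 2 that rose were havcr1 (0.65 ± 0.12, adjusted p = 0.00241) and the scavenger receptor marco (0.67 ± 0.22, adjusted p = 0.0302). The related perforin gene mpeg1.1 fell (-0.41 ± 0.14, adjusted p = 0.0306). The call of marco was lost without sibling replicate 1, 2 or 3 or mutant replicate 2 or 3 (adjusted p from 0.0575 to 0.0786). That of mpeg1.1 was lost without sibling replicate 2, 3 or 4 or mutant replicate 3 or 4 (adjusted p from 0.0511 to 0.0817). The growth factor receptor csf1ra did not pass (0.20 ± 0.20, adjusted p = 0.406). It did with normexp (0.34, adjusted p = 0.0289), but there the median difference over all named genes was also higher, 0.09 against 0.01. The part of this general shift in the csf1ra value was not tested. The part of macrophage number in the C1q result was not tested.

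By contrast, masp2, the protease that lectins use to cleave C4 and C2, was higher. Its signal was -0.18, -0.07, -0.19 and -0.07 in the sibling pools and 0.92, 1.29, 0.92 and 0.34 in the mutant pools. The mutant pools all lay higher and were also more spread (difference 1.00 ± 0.18, adjusted p = 0.00225).

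The central component C3, whose fragment C3b coats targets and joins the convertases, has several gene copies in zebrafish. Of these 3 are among the members, and 4 further copies were measured. For c3a.1 the sibling pools gave 4.29, 3.99, 4.20 and 4.07, and the mutant pools 5.21, 5.32, 4.90 and 4.65. It rose by 1.84-fold (difference 0.88 ± 0.16, adjusted p = 0.00200), with no overlap. The copy c3a.3 gave 3.23, 3.02, 2.96 and 3.19 in siblings and 3.74, 4.47, 3.87 and 3.89 in mutants, a rise of 1.85-fold (0.89 ± 0.17, adjusted p = 0.00233). For c3a.2 the values were 2.74, 2.75, 2.75 and 2.99 in siblings and 2.52, 3.00, 2.74 and 2.62 in mutants. These overlapped, and the difference of -0.09 ± 0.12 did not pass (adjusted p = 0.580). Since these copies are alike in sequence, cross-hybridisation between their probes is possible and was not tested. The change of c3a.1 exceeded that of c3a.2 by 0.97 ± 0.18 (SE, exact permutation p = 0.0286, adjusted p = 0.0508 over 16 pairs compared), and that of c3a.3 also exceeded that of c3a.2 (c3a.2 minus c3a.3 -0.98 ± 0.10, exact p = 0.0286, adjusted p = 0.0508). The changes of c3a.1 and c3a.3 differed by -0.01 ± 0.18 (exact p = 0.971).

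Both proteases of the alternative pathway changed, in opposite directions. The gene cfb encodes factor B, which joins C3b in the alternative convertase, and cfd encodes factor D, which cuts factor B into its active form. For cfb the signal was 2.71, 2.56, 2.66 and 2.73 in the sibling pools and 3.63, 3.87, 3.32 and 3.23 in the mutant pools. Each mutant pool lay above each sibling pool, a rise of 1.80-fold (difference 0.85 ± 0.15, adjusted p = 0.00164). For cfd it was 5.99, 6.14, 6.26 and 6.27 in siblings and 4.56, 4.71, 4.28 and 4.1 in mutants. The gap between genotypes was several times the spread within either, and cfd fell by 3.37-fold (-1.75 ± 0.15, adjusted p = 8.53e-05). With quantile scaling its difference was -1.37. The change of cfb exceeded that of cfd by 2.60 ± 0.08 (exact permutation p = 0.0286, adjusted p = 0.0508). Since cfb lay wholly higher and cfd wholly lower in the mutant pools, this p was fixed in advance and adds no support.

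**Figure D2:**
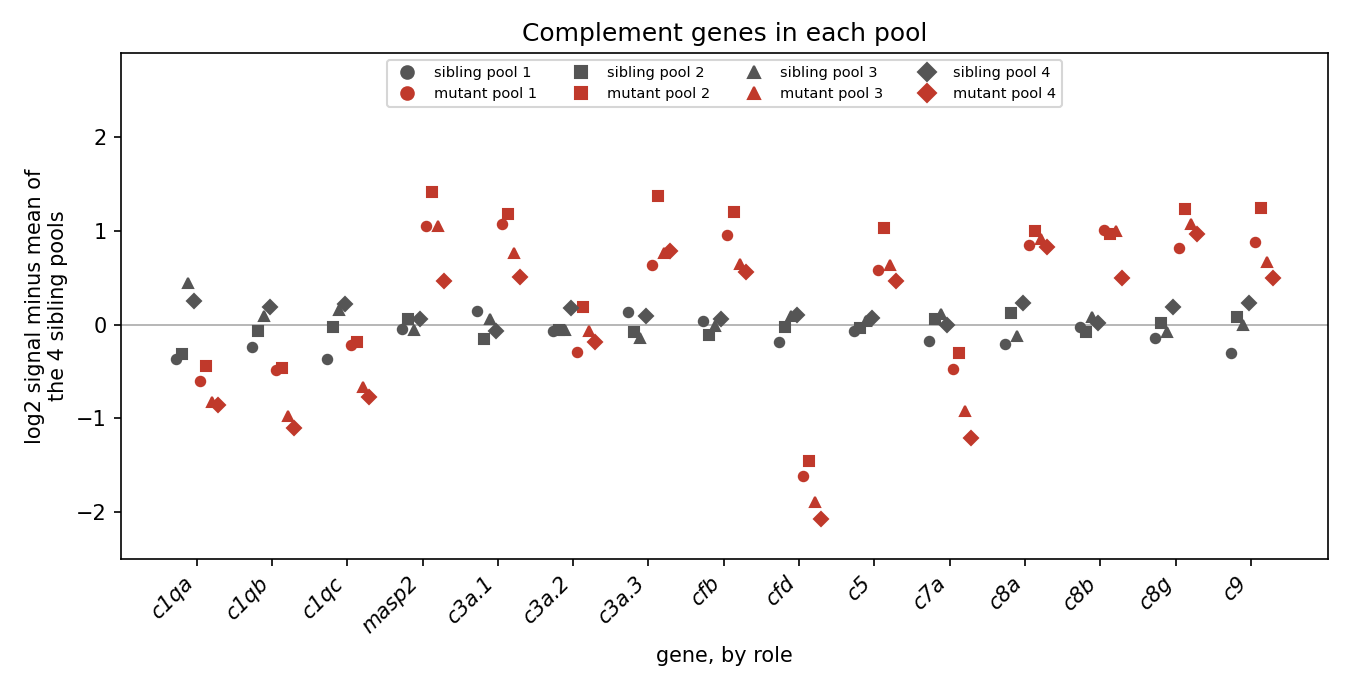
Log2 signal of 15 complement genes in each pool, minus the mean of the 4 sibling pools of that gene. Grey marks are sibling pools and red marks mutant pools, with 1 mark shape per replicate number. The red marks lie above the grey for 9 genes and below for c1qa, c1qb, cfd and c7a.

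Of the terminal components, which build the membrane attack pore, 5 of 6 measured were higher and 1 lower. Of all named genes 29.9% were higher and 27.8% lower. The gene c5, whose product starts the assembly once it is cleaved, gave 2.92, 2.95, 3.03 and 3.06 in siblings and 3.57, 4.02, 3.63 and 3.46 in mutants. It rose by 1.61-fold without overlap (0.68 ± 0.13, adjusted p = 0.00251). For c9, which forms the ring of the pore, the values were 4.45, 4.83, 4.75 and 4.98 against 5.63, 6.0, 5.42 and 5.25. It rose by 1.77-fold (0.82 ± 0.18, adjusted p = 0.00531).

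All 3 chains of C8, which inserts into the membrane before C9, rose. The alpha chain c8a (0.89 ± 0.12, adjusted p = 4.48e-04) went from 0.97 ± 0.21 to 1.87 ± 0.08 (SD, n = 4 each). The beta chain c8b (0.87 ± 0.13, adjusted p = 7.93e-04) was 0.68, 0.64, 0.67 and 0.17 in the mutant pools, the last of which stood apart from the others and still lay above every sibling pool. The gamma chain c8g (1.03 ± 0.12, adjusted p = 2.75e-04), a lipocalin rather than a pore-forming protein, gave -3.28, -3.12, -3.22 and -2.95 in siblings and -2.32, -1.90, -2.07 and -2.17 in mutants. The changes of c8a and c8b differed by 0.02 ± 0.16 (exact permutation p = 0.943), those of c8a and c8g by -0.14 ± 0.07 (exact p = 0.114) and those of c8b and c8g by -0.16 ± 0.16 (exact p = 0.371). With 4 pools each, these intervals do not show that the chains changed alike.

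The lower one was c7a, a C7 gene, whose product anchors the growing complex to the membrane. It gave -0.02, 0.21, 0.26 and 0.15 in the sibling pools and -0.32, -0.15, -0.77 and -1.06 in the mutant pools. The mutant pools lay below the siblings but spread widely, and the fall was 1.66-fold (-0.73 ± 0.20, adjusted p = 0.0136). Its other copy c7b is not analysed here.

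Among the clotting genes, factor VII was higher, while the tissue factor gene f3a and the related factor VII gene f7i did not pass. Tissue factor, f3a, the membrane receptor that meets factor VII at a wound, gave -2.39, -1.47, -1.75 and -1.46 in siblings and -1.97, -1.67, -1.69 and -2.21 in mutants. The genotypes overlapped, and the difference of -0.12 ± 0.23 did not pass (adjusted p = 0.675). The other tissue factor copy, f3b, is no member and was picked after its values were seen. It fell (-1.31 ± 0.22, adjusted p = 0.00136, and -0.85 with normexp). Factor VII, f7, gave 1.94, 1.98, 2.03 and 2.28 against 2.65, 2.75, 2.74 and 2.91. It rose by 1.62-fold with no overlap (0.70 ± 0.11, adjusted p = 8.96e-04). The related factor VII gene f7i gave 1.92, 2.15, 2.07 and 2.33 against 2.11, 1.95, 2.60 and 2.34, which overlapped (0.13 ± 0.16, adjusted p = 0.512). The change of f7 exceeded that of f7i by 0.57 ± 0.14 (exact permutation p = 0.0286, adjusted p = 0.0508).

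The vitamin K-dependent proteases further down the cascade were higher in 3 of 3 measured cases, against 29.9% of all named genes. Factor IX, f9b, had the largest rise of the 32 genes as processed here, while fga exceeded it with quantile scaling (1.72 against 1.63) and with normexp (1.45 against 1.43). Its signal was -0.98, -1.09, -0.92 and -0.75 in the sibling pools and 0.89, 0.84, 0.71 and 0.34 in the mutant pools. No pool of 1 genotype came near those of the other, and the gene rose by 3.09-fold (1.63 ± 0.14, adjusted p = 9.28e-05). Factor X, f10, which cuts prothrombin, gave 3.11, 3.28, 3.27 and 3.53 against 4.15, 4.24, 4.01 and 4.14, a rise of 1.79-fold (0.84 ± 0.11, adjusted p = 4.40e-04). Prothrombin itself, f2, rose least of the called genes, by 1.40-fold (0.49 ± 0.13, adjusted p = 0.0117), from 3.15 ± 0.18 to 3.64 ± 0.18 (SD, n = 4 each). A second probe of f2 gave 0.64 (adjusted p = 0.00415).

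These proteases need gamma-carboxylation, a modification that depends on reduced vitamin K. Of 6 measured genes in a list around the vitamin K cycle 5 were higher (83.3%) and 0 lower. Over all named genes 29.9% were higher and 27.8% lower. The carboxylase ggcx (0.64 ± 0.10, adjusted p = 8.56e-04) and the reductase vkorc1 (0.75 ± 0.11, adjusted p = 5.77e-04) rose. So did the related reductase vkorc1l1 (0.39 ± 0.13, adjusted p = 0.0301). The call of vkorc1l1 was lost with quantile scaling and without sibling replicate 2 or 4 or mutant replicate 1 or 4 (adjusted p between 0.0561 and 0.0831).

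The 2 large cofactors, which speed up factors IX and X, went apart. Factor V, f5, gave 1.18, 1.48, 1.40 and 1.63 in siblings and 2.71, 2.83, 2.24 and 2.14 in mutants. All mutant pools were above the siblings, and it rose by 2.08-fold (1.06 ± 0.18, adjusted p = 0.00151). Factor VIII, f8, gave -1.87, -1.62, -1.59 and -1.53 in siblings and -2.74, -2.39, -2.63 and -2.29 in mutants. Here all mutant pools were below, a fall of 1.82-fold (-0.86 ± 0.13, adjusted p = 8.55e-04), and the value was -0.47 with normexp background correction. The changes of f5 and f8 differed by 1.92 ± 0.22 (exact permutation p = 0.0286, adjusted p = 0.0508). With f5 wholly above and f8 wholly below the siblings, this p was fixed in advance. Of 9 endothelial markers 6 were lower (66.7%) and 1 higher (11.1%), against 27.8% and 29.9% of all named genes. The 1 that rose was cdh5 (0.43 ± 0.10, adjusted p = 0.00522). Neither kdr (-0.40 ± 0.19, adjusted p = 0.105) nor tek (0.13 ± 0.15, adjusted p = 0.485) passed. Their summed level was 5.82 to 6.31 in siblings and 4.18 to 4.66 in mutants. The brightest probe, that of erg (mean log2 signal 0.82 in siblings and 0.13 in mutants), weighs most in this sum. The endothelial gene vwf, whose product carries factor VIII in mammalian plasma, fell (-1.77 ± 0.13, adjusted p = 6.20e-05). The part of endothelial cells in the f8 result was not tested.

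Fibrinogen is secreted as a complex of alpha, beta and gamma chains, and the genes of all 3 were higher. Of all named genes 29.9% were higher. For fga, the alpha chain, the signal was 3.00, 3.02, 3.16 and 3.33 in the sibling pools and 5.00, 4.80, 4.58 and 4.14 in the mutant pools. The genotypes were well apart, and it rose by 2.83-fold (1.5 ± 0.19, adjusted p = 3.34e-04). For fgb the values were 4.97, 5.15, 5.09 and 5.30 against 6.06, 5.93, 5.87 and 5.53, a rise of 1.65-fold (0.72 ± 0.13, adjusted p = 0.00219) whose size was 1.12 with quantile scaling. For fgg they were 4.76, 4.80, 4.88 and 4.95 against 5.90, 5.87, 5.64 and 5.48, a rise of 1.84-fold (0.88 ± 0.12, adjusted p = 4.63e-04). In all 3 chains mutant replicate 1 was the highest mutant pool and mutant replicate 4 the lowest. The rise of fga exceeded that of fgb by 0.78 ± 0.09 and that of fgg by 0.62 ± 0.10 (exact permutation p = 0.0286 each, adjusted p = 0.0508). The changes of fgb and fgg differed by -0.15 ± 0.06 (exact p = 0.0857).

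**Figure D3:**
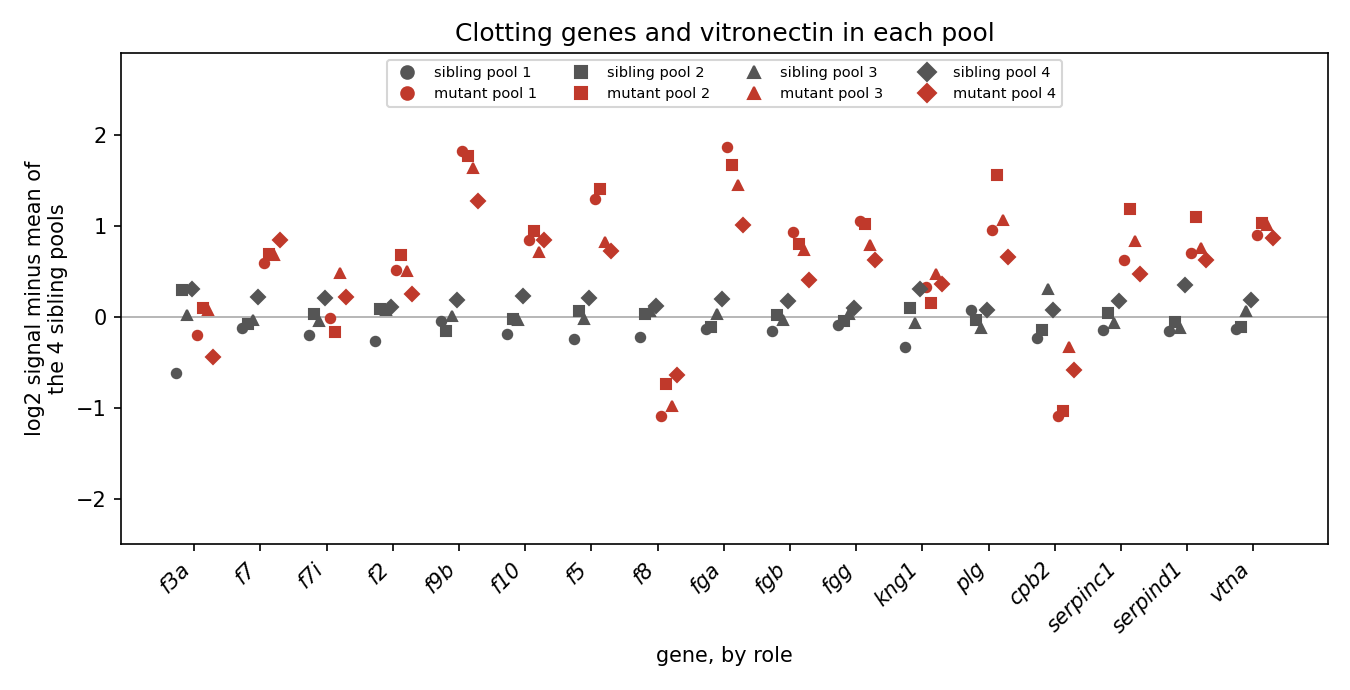
Log2 signal of 16 clotting genes and vitronectin in each pool, minus the mean of the 4 sibling pools of that gene. Marks are as in the plot of complement genes. The red marks of f9b and fga lie highest, and those of f8 and cpb2 lie below all grey marks.

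Kininogen, kng1, the source of bradykinin and a partner of the contact phase in mammals, gave 4.26 ± 0.27 in siblings and 4.59 ± 0.13 in mutants (SD, n = 4 each). These overlapped, and the difference of 0.33 ± 0.15 did not pass (adjusted p = 0.0878). It passed with quantile scaling (0.59, adjusted p = 0.00691) and without sibling replicate 4 (0.43, adjusted p = 0.0362), while without sibling replicate 1 the difference was 0.21 (adjusted p = 0.198). A second probe of kng1 gave 0.34 (adjusted p = 0.0847).

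The genes of clot removal changed in opposite directions. Plasminogen, plg, the precursor of the protease that cuts fibrin, gave 3.34, 3.23, 3.15 and 3.35 in siblings and 4.22, 4.83, 4.33 and 3.93 in mutants. It rose by 2.09-fold without overlap (1.06 ± 0.18, adjusted p = 0.00145). The gene cpb2 encodes a carboxypeptidase that trims fibrin and so slows plasminogen binding. It gave -3.23, -3.15, -2.69 and -2.93 in siblings and -4.09, -4.04, -3.33 and -3.58 in mutants, a fall of 1.70-fold (-0.76 ± 0.20, adjusted p = 0.0115). This was a dim probe, and with normexp background correction the difference was -0.09 and did not pass (adjusted p = 0.409). The changes of plg and cpb2 differed by 1.82 ± 0.35 (exact permutation p = 0.0286, adjusted p = 0.0508). With plg wholly above and cpb2 wholly below the siblings, this p was fixed in advance.

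Of 2 inhibitors of clotting proteases, both rose, against 29.9% of all named genes. Antithrombin, serpinc1, gave 2.04, 2.23, 2.12 and 2.36 in siblings and 2.81, 3.38, 3.02 and 2.66 in mutants, a rise of 1.72-fold with no overlap (0.78 ± 0.16, adjusted p = 0.00400). Heparin cofactor II, serpind1, which inhibits thrombin, rose by 1.73-fold (0.79 ± 0.15, adjusted p = 0.00280), and its second probe gave 0.70 (adjusted p = 0.00209). Vitronectin, vtna, which binds both terminal complement complexes and the plasminogen activator inhibitor, gave 1.86, 1.88, 2.05 and 2.17 against 2.89, 3.02, 3.00 and 2.86. Its mutant pools were the closest together of all 32 genes together with c8a (SD 0.08 each), and it rose by 1.94-fold (0.96 ± 0.10, adjusted p = 1.79e-04).

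In all, 16 pairs of subunits, copies or partners were compared for a difference in their change. The pairs were picked after the values were known. Of these 9 reached the smallest p that 4 against 4 pools allow, 0.0286, and 0 passed 0.05 after adjustment over the 16. The adjusted p of 0.0508 is set by this floor and by how many pairs were compared and reached it. It was thus the same for all 9, however large the difference, and does not weigh any single pair. For cfb and cfd, f5 and f8, and plg and cpb2 the smallest p was also bound to occur. In these pairs each gene alone separated the genotypes, in opposite directions. In the RefSeq gene table of the GRCz12tu assembly f7i lies between f7 and f10 with 0 other protein-coding genes on either side, so a gene that did not pass stands between a pair that rose. There c3a.2 is the direct neighbour of c3a.3, and c8a that of c8b. The array was designed on an older build, so no coordinates are given.

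The pools of a genotype did not scatter independently from gene to gene. Among the 21 higher members, mutant replicate 2 was the highest mutant pool in 15 and mutant replicate 4 the lowest in 17. Sibling replicate 4 was the highest sibling pool in 17, and sibling replicate 1 the lowest in 14. The median over complement members, after subtracting the mean of each gene over the 8 arrays, was -0.32, -0.33, -0.36 and -0.22 in sibling replicates 1 to 4 and 0.24, 0.55, 0.26 and 0.07 in mutant replicates 1 to 4. For clotting members it was -0.52, -0.39, -0.40 and -0.16, and 0.29, 0.48, 0.34 and 0.17. In both lists mutant replicate 2 was highest and mutant replicate 4 lowest of the mutants, and no mutant pool reached down to a sibling pool. Over all named genes the same medians lay within 0.03 of 0. Without mutant replicate 4, the counts called were again 13 of 15 and 13 of 16, and the medians were 0.91 and 0.83.

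Other liver transcripts did not all follow. Of 12 hepatocyte markers 3 were higher, 2 lower and 7 did not pass, with a median difference of 0.24. The share called was 41.7%, against 57.6% of all named genes. Their summed level was 1041 to 1279 in the sibling pools and 1297 to 1511 in the mutant pools, relative to the 75th percentile. The brightest probe, that of apoa2 (mean log2 signal 8.48 in siblings and 8.99 in mutants), weighs most in this sum. The part of hepatocyte number in the members' rise was not tested. The fatty acid-binding protein fabp10a, a marker of zebrafish liver, did not pass (0.18 ± 0.16, adjusted p = 0.352), nor did transferrin tfa (0.31 ± 0.16, adjusted p = 0.130). The plasma proteins itih2 (0.97 ± 0.12, adjusted p = 3.78e-04) and apoa2 (0.51 ± 0.09, adjusted p = 0.00206, and 0.28 with quantile scaling) rose, and ahsg1 (-1.24 ± 0.15, adjusted p = 2.70e-04) fell. So did hpxa, hemopexin, which binds heme (-7.09 ± 0.96, adjusted p = 5.04e-04), though only 2 mutant arrays read it clearly above background. Of 13 genes in an acute phase list, the plasma proteins and signals of inflammation, 7 were lower (53.8%) and 1 higher (7.69%). The median was -0.71, and over all named genes 27.8% were lower and 29.9% higher. All members, also those that rose, were left out of this list, and hpxa is counted in it as well as among the hepatocyte markers. The counts thus depend on how the list was drawn. In this list crp1 (0.20 ± 0.12, adjusted p = 0.182) and saa (-0.53 ± 0.33, adjusted p = 0.201) did not pass. The gene crp2 was well above background on 3 mutant arrays. It fell (-4.34 ± 0.75, adjusted p = 0.00156), and crp3 (-1.82 ± 0.24, adjusted p = 4.22e-04) and crp4 (-0.71 ± 0.11, adjusted p = 7.67e-04) also fell. So did socs3b, a brake on cytokine signalling (-0.62 ± 0.09, adjusted p = 6.92e-04). Whether the lists differ from the members was not tested.

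**Figure D4:**
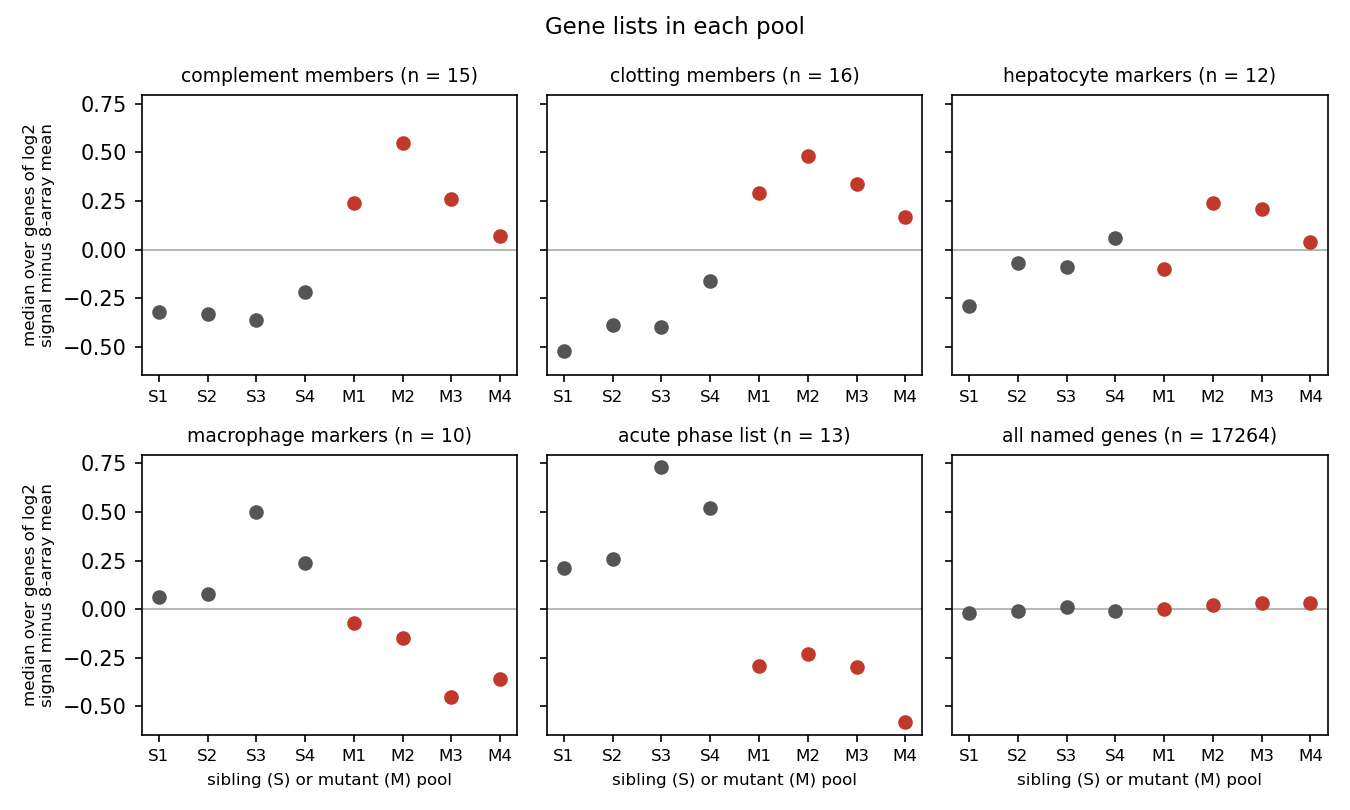
Median over the genes of a list, in each pool, of the log2 signal minus the mean of each gene over the 8 arrays, for 4 sibling pools (S, grey) and 4 mutant pools (M, red). Complement and clotting members lie between 0.07 and 0.55 in every mutant pool, and the acute phase list lies between -0.58 and -0.23.

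Further genes of the 2 cascades were also measured. Of 23 other complement genes 6 were higher (26.1%) and 7 lower (30.4%), with a median of 0.13. These shares were near those of all named genes, 29.9% higher and 27.8% lower, unlike those of the members. Both lists were chosen with earlier results of these data known, and their difference was not tested. The lectin colec10 (1.33 ± 0.19, adjusted p = 6.07e-04), a partner of the MASP proteases in mammals, rose. So did the lectin colec11 (0.79 ± 0.16, adjusted p = 0.00327), while the lectin mbl2 fell (-2.54 ± 0.62, adjusted p = 0.00849). The lectins hbl2 and hbl4 did not pass. All 4 further C3 copies are given, chosen after their values were seen. The copies c3a.6 (0.95 ± 0.16, adjusted p = 0.00143) and c3b.1 (0.89 ± 0.16, adjusted p = 0.00182) rose. The copy c3a.5 fell (-1.76 ± 0.42, adjusted p = 0.00726, and -0.53 with normexp), and c3b.2 did not pass (-0.28 ± 0.30, adjusted p = 0.448). The scavenger lectin colec12 (-1.11 ± 0.12, adjusted p = 2.03e-04), the factor B-like gene cfbl (-2.36 ± 0.32, adjusted p = 4.92e-04) and cd59a, a membrane shield against the attack pore (-0.68 ± 0.10, adjusted p = 6.57e-04), fell. With normexp background correction the values of colec12 and cfbl were -0.31 and -0.96. Of 18 other clotting genes 7 were higher (38.9%) and 6 lower (33.3%), with a median of -0.03. The inhibitors serpina10a (1.35 ± 0.17, adjusted p = 3.78e-04), which acts on factor X, and serpinf2b (0.95 ± 0.10, adjusted p = 1.53e-04), which acts on plasmin, rose. The protease-activated receptor f2rl1.1, well above background on 1 mutant array, fell (-2.82 ± 0.21, adjusted p = 6.40e-05, and -1.0 with normexp).

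**Figure D5:**
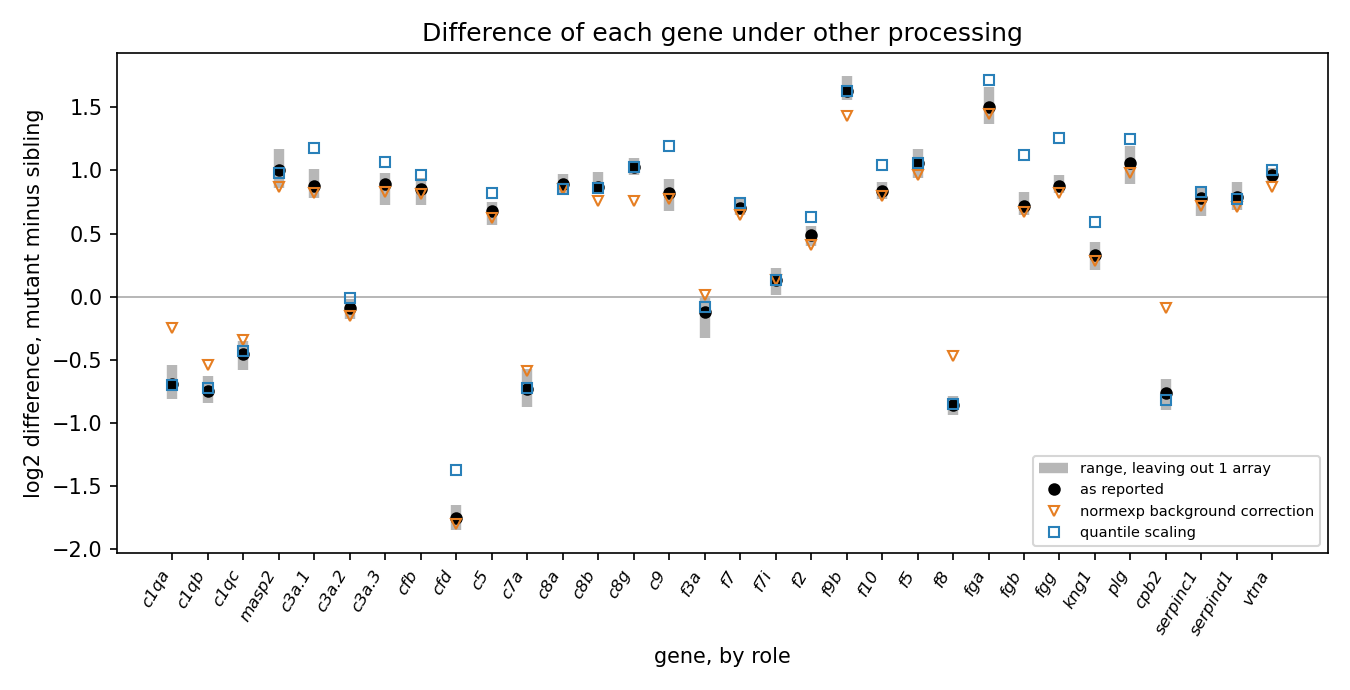
Log2 difference of each of 32 genes as reported (black), with normexp background correction (triangles) and with quantile scaling (squares), over the range when each array is left out (grey bars). The called genes keep their sign, and cpb2 moves from -0.76 to -0.09 with normexp.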

How the data were processed

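Total RNA of 8 pools was measured on one-colour Agilent arrays. The deposited scanner files give 1 background-corrected intensity per spot, made by the authors with Agilent Feature Extraction (10.7.3.1, per the file headers). The authors also deposited a table of log2 values. These equalled scanner values scaled to the 75th percentile and centred on each probe's median within 0.01 for 99.8% to 99.9% of probes per array. It has column medians from -0.0933 to 0.166, and it was used as an alternative. Flag columns per spot (other values) are also the authors', per the file headers. All 8 arrays lay on 1 slide.

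Outlier spots (1099) were left out of 61657, log2 values of a probe's spots were averaged, and the 75th percentile over probes was subtracted. No spot was saturated. A probe was kept if most of its spots had the above-background flag on 4 or more arrays, which left 29937 of 39749. The probe-level percentile and this rule were settled after the files were read, by comparison with the deposited table and an earlier processing. Symbols came from RefSeq accessions in the GRCz12tu table, which named 61.8% of probes. A gene was its brightest kept probe. Genotypes were compared with limma 3.58.1 (R 4.3.3, lmFit and eBayes, two-sided, Benjamini-Hochberg over all kept probes). The fit was tested on simulated data. Files hold no mean spot signal, so normexp (offset 50) used spot medians. The named genes are all members and, of each further list, up to 4 of smallest adjusted p, with others where a result is set beside them. These others are fabp10a, tfa, mpeg1.1, csf1ra, marco, f3b, colec11, mbl2, hbl2, hbl4 and the other C3 copies. Further ones are kdr, tek, crp1, crp2, csf3r and saa. All of these were chosen after their values were seen. The value of 1 gene that this rule would name is not reported here. Lists covered other complement and clotting genes, the vitamin K cycle, hepatocyte factors, acute phase, and markers of hepatocytes, macrophages, endothelium, thrombocytes, neutrophils and intestine. Members and lists were chosen with earlier results of these data known. Alternatives were other background correction, scaling, filters, outlier spots kept, the deposited table, other variance models, array weights, a replicate or slide-row term, the mean of a gene's probes, a threshold of 0.01 and each array left out.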

Additional observations from a re-analysis of the deposited data

Results flagged for a closer look

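Of the member values, 3 stood far from the other pools of their genotype, by the gap to the nearest pool as a share of the range (above Dixon's 95% critical value for 4 pools). For c3a.2 sibling replicate 4 had 2.99, with 2.75 in the nearest pool. For c8b mutant replicate 4 had 0.17, with 0.64 in the nearest. For f2 sibling replicate 1 had 2.89, with 3.22 in the nearest. Of 64 sets of 4 pools examined, these 3 were picked out, and chance alone picks out about 5%.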

How the results depend on the processing

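The counts of called complement members (13) and clotting members (13) and both medians stayed within 1.5 times, or within 1 SD of the pools, under every alternative run. Counts ranged from 11 (threshold of 0.01) to 14. With 1 array left out they were 12 to 14 for complement and 13 to 14 for clotting, and the medians were 0.68 to 0.91 and 0.69 to 0.83. No called member changed sign. Calls were lost for c1qa (normexp, replicate block, without sibling replicate 4 or mutant replicate 3), for cpb2 (normexp), and for c1qa, c7a, f2 and cpb2 at a threshold of 0.01, and the causes were not tested. That of c1qc was gained with array weights (adjusted p = 0.0327). With the replicate number as a block 12 complement and 13 clotting members were called, and c1qa had an adjusted p of 0.0573. Under it the calls of vkorc1l1 (adjusted p = 0.0732) and mpeg1.1 (adjusted p = 0.0838) were also lost. Deviations of same-numbered pools correlated at 0.183, 0.0979, -0.0231 and -0.0246, so the numbers were not taken as pairs, and replicate 1 was the only number whose pools correlated best with each other. The number of arrays and, for dim probes such as those of cpb2, c1qa and f8, the signal over background limit the precision.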

Other observations

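Transcription factors of hepatocytes were measured beside the members. Of 19 genes 8 were higher (42.1%) and 2 lower (10.5%), with a median difference of 0.30 and 9 that did not pass. Over all named genes the shares were 29.9% and 27.8%. The homeobox factors onecut1 (1.41 ± 0.14, adjusted p = 1.57e-04) and prox1a (1.03 ± 0.11, adjusted p = 1.71e-04) rose, as did the bile acid receptor nr1h4 (0.91 ± 0.11, adjusted p = 3.37e-04). The factor cebpa fell (-1.58 ± 0.19, adjusted p = 3.35e-04). It was well above background on 2 mutant arrays, and its call was lost with normexp background correction (-0.30, adjusted p = 0.0613).

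Markers of neutrophils and intestine went mostly down, while those of thrombocytes were mixed (median -0.08). Of 4 thrombocyte markers 1 was higher and 2 lower, among them nfe2 (-1.07 ± 0.13, adjusted p = 2.70e-04, and -0.69 with normexp) and gp1bb, a receptor for von Willebrand factor in mammals (0.58 ± 0.10, adjusted p = 0.00144). Of 7 neutrophil markers 1 was higher (14.3%), 4 were lower (57.1%) and 2 did not pass. The higher one was csf3r (0.80 ± 0.24, adjusted p = 0.0221), and the lysozyme lyz was among the lower ones (-1.68 ± 0.16, adjusted p = 1.32e-04). Of 7 intestinal markers 0 were higher and 5 lower (71.4%), with fabp2 at -2.44 ± 0.51 (adjusted p = 0.00390). For these lists the shares of all named genes were 29.9% higher and 27.8% lower.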
